A study of Mus musculus with 10 samples.

Results

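Trypsinogen genes of the mouse pancreas were followed here, limited to the 6 genes Prss1, Prss2, Prss3, Try4, Try5 and Try10. They were chosen by name, and all 6 were found among the 24062 genes counted in each library. Whole pancreas RNA was sequenced from 5 WT and 5 KSR23 mice at postnatal day 5 (P5), with 1 library per mouse. Both groups were on the C57BL/6 background. KSR23 mice carried the R23 cassette, in which the p19 and p40 subunits of IL-23 sit in the ROSA26 locus behind a floxed STOP sequence, together with Cre recombinase driven by the human keratin 14 promoter (hK14-cre). The promoter directs the cytokine to keratinocytes, so the transgene was not aimed at the pancreas itself. WT mice were controls of the same strain and age, and the study describes them as littermates, although the labels tie no library to a litter. The comparison asked how trypsinogen mRNA in the newborn pancreas differs when IL-23 is expressed early in life.

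Trypsinogens are made by acinar cells as inactive precursors (zymogens) and are stored in granules with the other digestive enzymes. After secretion into the gut, enteropeptidase cuts them to trypsin, which then activates more trypsinogen and the zymogens of chymotrypsin, elastase, carboxypeptidase, phospholipase A2 and colipase. Inside the gland, early activation is held back by the trypsin inhibitor Spink3, the mouse counterpart of human SPINK1, and by proteases that degrade trypsinogen.

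Of these 6 genes, 4 rose in KSR23 mice, 1 fell and 1 did not pass the test. Prss3 and Try5 rose most, Prss2 and Try4 rose by less, Try10 fell, and Prss1 was not called. Without WT mouse 2 or WT mouse 5, Prss2 and Try4 missed the threshold, and 2 of the 6 were called higher. Prss2 and Try4 were also not called when the replicate number was entered as a block. The counts were compared with the edgeR quasi-likelihood test over the 13882 genes that had 5 or more counts in each of the 10 libraries, and a gene was called at a Benjamini-Hochberg adjusted p under 0.05. By that rule, 16.2% of all tested genes were called higher in KSR23 mice and 14.8% were called lower. In 3 of the 6 genes (Prss2, Prss3 and Try5) each KSR23 mouse had a higher level than each WT mouse, as in 10.7% of all tested genes, and in 1 of 6 (Try10) each had a lower level, as in 8.74%. The median log2 FC (log2 fold change, KSR23 against WT) was 0.35 over the 6 genes, beside -0.00562 over all tested genes. In whole-tissue RNA, a change in the number of acinar cells and a change in the RNA of each cannot be told apart.

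The 6 genes lie together on chromosome 6, among segments of the T cell receptor beta locus. On GRCm38, the assembly named mm10 in the study, Try4 spans 41302269 to 41305532 on the plus strand, Try5 spans 41311233 to 41316841 on the minus strand, and Try10 spans 41354105 to 41357914 on the plus strand. Prss3 follows at 41373814 to 41377678 on the minus strand, Prss1 at 41458932 to 41463786 on the plus strand and Prss2 at 41521787 to 41525079 on the plus strand. The genes are close copies, which bears on every value given for them, since only reads that aligned to 1 place were counted. Transcripts of Try4 and Try5 were identical at 97.1% of aligned bases, and those of Try4 and Try10 at 94.8%. Prss3 and Prss1 were identical at 96.1%, whereas Prss1 and Prss2 were identical at 88.5%. To express this per gene, the longest transcript was divided into windows as long as a read (75 bases), and the share of windows found in no other annotated gene was taken as the share that a read can tell apart. That share was 99.1% for Prss2, 75.3% for Try10, 62.9% for Prss1, 62.2% for Try5, 56.1% for Try4 and 46.1% for Prss3.

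To show how alike the sequences that precede these neighbouring genes are, the 250 bases before the start are printed here for 4 of the trypsinogen genes, from RefSeq (GRCm38.p6), followed by those of Gm2663, the gene of the same cluster with the largest rise. Sequences of Try5 and Try10 were not used here. The RefSeq starts differ from those of the gene spans given above, so that the last 65 bases printed for Prss3 and the last 3 for Try4 lie inside those spans. Sequences run 5′ to 3′ on the strand of the gene. Capitals mark, on either strand, matches to CANCTG (the E-box bound by the acinar factor PTF1A with its partner), TTCCCA (the RBPJ box), CAAGGNCA (the site of the nuclear receptor NR5A2), TTCNNNGAA (the site bound by STAT factors, which act downstream of IL-23 and IL-22) and TATAAA (the TATA box, added after the sequences were seen). They are Prss1 at chr6:41458680-41458929 (plus strand), Prss2 at chr6:41521526-41521775 (plus), Prss3 at chr6:41377614-41377863 (minus), Try4 at chr6:41302022-41302271 (plus) and Gm2663 at chr6:40999480-40999729 (minus).
Prss1: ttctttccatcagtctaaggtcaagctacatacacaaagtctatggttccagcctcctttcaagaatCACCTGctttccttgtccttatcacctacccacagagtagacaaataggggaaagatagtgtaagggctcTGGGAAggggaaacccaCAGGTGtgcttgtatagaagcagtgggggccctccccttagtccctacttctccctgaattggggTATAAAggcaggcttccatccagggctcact
Prss2: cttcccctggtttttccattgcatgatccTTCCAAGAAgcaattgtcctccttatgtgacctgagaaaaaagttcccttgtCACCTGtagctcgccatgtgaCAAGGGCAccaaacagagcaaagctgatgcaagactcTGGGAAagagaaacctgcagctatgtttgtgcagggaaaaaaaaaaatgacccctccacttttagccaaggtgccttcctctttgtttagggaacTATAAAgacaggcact
Prss3: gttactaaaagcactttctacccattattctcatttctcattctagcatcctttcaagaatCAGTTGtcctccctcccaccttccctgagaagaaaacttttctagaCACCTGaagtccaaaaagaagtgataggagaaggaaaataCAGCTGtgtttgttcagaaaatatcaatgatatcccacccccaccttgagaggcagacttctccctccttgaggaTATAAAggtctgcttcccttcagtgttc
Try4: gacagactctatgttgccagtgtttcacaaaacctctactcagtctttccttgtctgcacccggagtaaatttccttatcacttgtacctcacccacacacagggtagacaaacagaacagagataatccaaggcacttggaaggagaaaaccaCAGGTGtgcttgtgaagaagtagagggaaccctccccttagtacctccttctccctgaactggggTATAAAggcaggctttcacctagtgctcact
Gm2663: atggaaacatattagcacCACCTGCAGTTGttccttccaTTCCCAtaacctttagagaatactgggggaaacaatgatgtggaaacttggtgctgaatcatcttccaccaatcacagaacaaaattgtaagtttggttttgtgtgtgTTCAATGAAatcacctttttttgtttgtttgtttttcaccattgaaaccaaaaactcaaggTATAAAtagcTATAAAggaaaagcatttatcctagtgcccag
Each of these 5 windows held a TATA box and at least 1 E-box, which were present in 12.4% and 44.8% of the windows of the same length before all 32851 annotated starts. Prss3 held 3 E-boxes, Prss1 and Gm2663 held 2 each, and Prss2 and Try4 held 1 each. In Gm2663, the E-boxes adjoin each other, and its TATAAA occurs 2 times. The RBPJ box was found once in Prss1, Prss2 and Gm2663 and in 21.6% of all windows, and it was not found in the windows of Prss3 and Try4. Prss2 was the only one of the 5 with a match to CAAGGNCA, which read CAAGGGCA, and 5.53% of all windows held a match. The STAT site was found in Prss2 and Gm2663 and in 7.02% of all windows. The window of Prss1 was identical to that of Try4 at 84.1% of aligned bases, and that of Prss2 to that of Prss3 at 80.5%. These matches describe letters only, and binding was not measured.

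Before the values of single genes, the libraries were compared. Gene counts summed to 26830235 to 33189132 per library in WT mice and 16715976 to 57784136 in KSR23 mice. Levels are given as CPM, counts per 1000000 counts of the library size after TMM scaling. A count of 3 in a library, taken as the floor, came to between 0.0535 and 0.168 CPM, far under every trypsinogen level, and it covers counting error only, since PCR copies could not be told apart. KSR23 mouse 1 had the lowest level among KSR23 mice for 5 of the 6 genes (all but Prss2). Alignments to more than 1 place, which were not counted, came to between 1.07 and 1.26 per gene count in WT mice and between 0.667 and 0.787 in KSR23 mice, with no overlap, and their part in the differences between near-identical genes was not tested. Il23a, the p19 subunit of the cassette, was at 0.0372 to 0.316 CPM in WT and 0.857 to 1.21 CPM in KSR23 pancreas (p = 0.00794, two-sided exact permutation test, the smallest p that 5 against 5 mice allow). Il12b, the p40 subunit, was at 0 to 0.240 and 0.0888 to 0.327 CPM.

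Prss2, the most abundant of the 6 by CPM, was measured at 35342, 35295, 41561, 38944 and 32262 CPM in WT mice 1 to 5. In KSR23 mice 1 to 5 it was at 43070, 53174, 42717, 47322 and 50735 CPM. The groups did not overlap, although the lowest KSR23 mouse was close to the highest WT mouse. Means were 36681 ± 3612 and 47404 ± 4614 CPM (SD, n = 5 each), and the log2 FC was 0.37 (SE 0.112, adjusted p = 0.0181 by edgeR). The call was lost without WT mouse 2 (adjusted p = 0.0516) and without WT mouse 5 (adjusted p = 0.0604). Because nearly all of its windows are its own, Prss2 is, of the 6, the gene whose count depends least on the near-identical copies.

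Try5 was at 22128, 20312, 21042, 22443 and 20748 CPM in WT mice. In KSR23 mice it reached 29111, 36949, 36799, 31307 and 39117 CPM. Every KSR23 mouse was above every WT mouse, and the KSR23 mice were spread over a wider range. Means were 21335 ± 913 and 34656 ± 4234 CPM (SD, n = 5 each), and the log2 FC was 0.70 (SE 0.109, adjusted p = 9.39e-05 by edgeR).

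Prss3 was at 3961, 3852, 3430, 4016 and 3654 CPM in WT mice. It was at 5799, 7527, 7457, 7005 and 8160 CPM in KSR23 mice. The highest WT mouse was well under the lowest KSR23 mouse. Means were 3783 ± 241 and 7189 ± 879 CPM (SD, n = 5 each), and the log2 FC of 0.93 was the highest of the 6 (SE 0.104, adjusted p = 2.13e-06 by edgeR). Of its transcript windows, 53.9% also occur in Gm10334, so the level and change of this gene are uncertain to the extent that reads are shared.

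Try4 was at 11237, 10440, 11189, 10621 and 9709 CPM in WT mice. It was at 10838, 14297, 14041, 14149 and 13794 CPM in KSR23 mice. Of the KSR23 mice, 4 exceeded the WT range, while KSR23 mouse 1 lay within the WT range. Means were 10639 ± 626 and 13424 ± 1457 CPM (SD, n = 5 each), and the log2 FC was 0.34 (SE 0.104, adjusted p = 0.0209 by edgeR). Try4 was no longer called without WT mouse 2 (adjusted p = 0.0506) or WT mouse 5 (adjusted p = 0.0587). It shares 34.5% of its windows with Try5.

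Try10 went the other way. WT mice were at 5029, 4624, 5439, 5171 and 4388 CPM. KSR23 mice were at 2178, 2797, 2723, 2247 and 2663 CPM. The groups did not overlap, and the highest KSR23 mouse was far below the lowest WT mouse. Means were 4930 ± 422 and 2521 ± 287 CPM (SD, n = 5 each), and Try10 fell by 0.97 on the log2 scale (SE 0.103, adjusted p = 1.05e-06 by edgeR). The gene lies between Try5 and Prss3, both of which rose, and shares 11.6% of its windows with the pseudogene Gm5409.

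Prss1 was at 10850, 10465, 10522, 11094 and 9973 CPM in WT mice. It was at 8090, 10595, 11661, 9486 and 11250 CPM in KSR23 mice. WT values lay within the wider KSR23 range. Means were 10581 ± 425 and 10216 ± 1445 CPM (SD, n = 5 each), with a log2 FC of -0.05 (SE 0.109, adjusted p = 0.766 by edgeR). The sign turned with library totals alone as the scaling (log2 FC 0.041) and without KSR23 mouse 1 (0.0164).

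**Figure D1:**
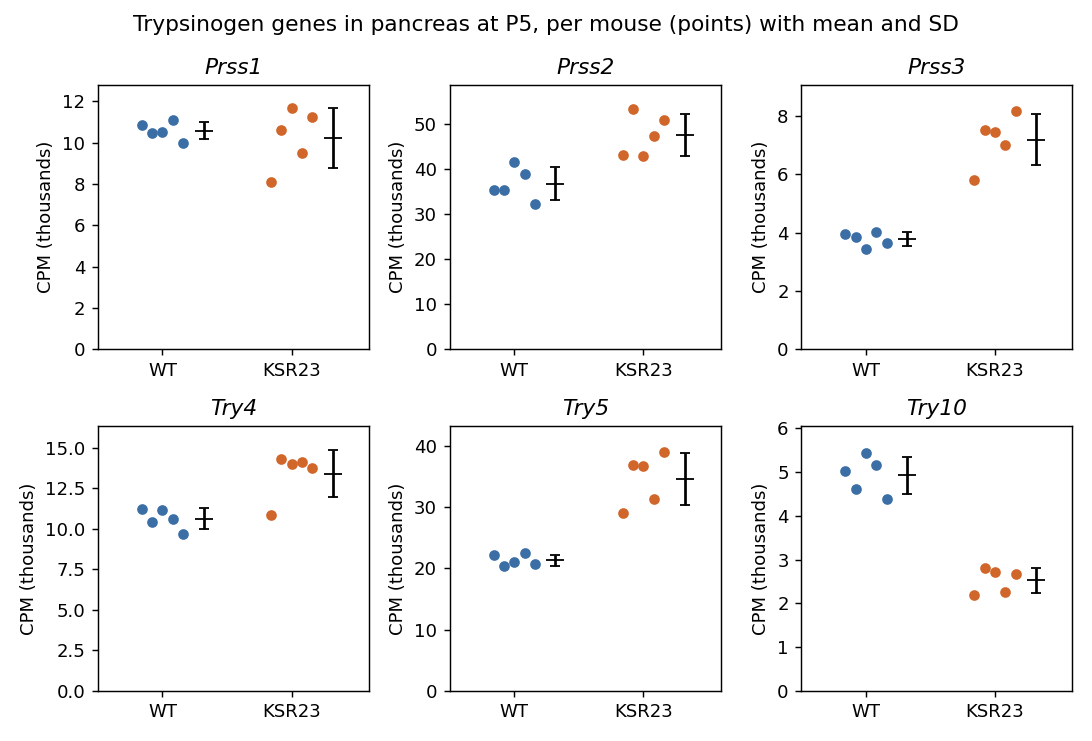
Levels of the 6 trypsinogen genes, in units of 1000 CPM on axes that start at 0, in WT (blue) and KSR23 (orange) pancreas at P5. Points are mice 1 to 5 of each group from left to right, and bars show the mean and SD. Prss2, Prss3 and Try5 are higher in all KSR23 mice, Try10 is lower in all, Prss1 overlaps, and for Try4 only KSR23 mouse 1 (10838 CPM) lies within the WT range.

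To compare levels between the 6 genes, CPM were divided by the length of the longest transcript in kb. In WT pancreas, Prss2 came first at 45007 ± 4432 CPM per kb and Try5 next at 26635 ± 1140 (SD, n = 5 each). Try4 (13282 ± 781) and Prss1 (13144 ± 528) did not differ beyond their spread. Try10 (5733 ± 491) stood above Prss3 (4602 ± 293), with 5103 CPM per kb in the lowest mouse for Try10 and 4886 in the highest for Prss3. In KSR23 pancreas, Prss2 (58164 ± 5661) was again above Try5 (43266 ± 5286), with no overlap. Try4 (16759 ± 1819) and Prss1 (12691 ± 1795) again overlapped. The lower end of the order was exchanged, with Prss3 at 8746 ± 1070 and Try10 at 2932 ± 334 CPM per kb.

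The order in WT mice depended on how shared sequence was treated. When the CPM were divided by the number of windows found in no other gene, Prss2 (49974 ± 4921 CPM per 1000 such windows) and Try5 (47201 ± 2020) overlapped in WT mice. Prss3 (10964 ± 698) was then above Try10 (8328 ± 714). In KSR23 mice, Try5 was at 76673 ± 9368 and Prss2 at 64583 ± 6286 on this scale, and their ranges overlapped. Spink3, the inhibitor, was at 2039 ± 535 CPM per kb in WT and 2120 ± 120 in KSR23 pancreas, below each of the 6 trypsinogens by mean.

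Together the 6 genes took up a larger part of the gene counts in KSR23 mice. Reads that aligned to more than 1 place are not in these counts, and their part in this share was not tested. Their share of all gene counts was 8.44, 8.51, 8.89, 8.62 and 8.08% in WT mice and 10.7, 12.7, 12.4, 11.5 and 12.2% in KSR23 mice. The groups did not overlap, and the means were 8.51 ± 0.293% and 11.9 ± 0.783% (SD, n = 5 each), a difference of 3.39 percentage points. The 7 listed Reg genes, which encode secreted lectin-like proteins of the pancreas, took up 3.76 ± 0.223% of gene counts in WT and 11.8 ± 0.864% in KSR23 mice. With these left out of the total, the trypsinogen share was 8.84 ± 0.319% and 13.5 ± 0.805%. The total also holds the zymogens described below, whose share was lower in KSR23 mice (26.3 ± 0.728% and 16.1 ± 0.801%). The trypsinogen share without those zymogens was not computed.

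The make-up of the trypsinogen counts, which needs no scaling between libraries, also differed. Try5 made up 24.3 ± 1.18% of the counts on the 6 genes in WT and 30.0 ± 1.51% in KSR23 mice, and Prss3 made up 4.31 ± 0.361% and 6.22 ± 0.281%. Both were above the WT range in all KSR23 mice. Try10 made up 5.60 ± 0.169% and 2.18 ± 0.129%, and Prss1 made up 12.0 ± 0.441% and 8.84 ± 0.763%, both with no overlap. Thus Prss1 took a smaller part of the trypsinogen counts in every KSR23 mouse, while its level relative to all genes was not called. The shares of Prss2 (41.6 ± 1.93% and 41.1 ± 2.57%) and Try4 (12.1 ± 0.432% and 11.6 ± 0.769%) overlapped.

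Ratios inside a library gave the same contrast. The log2 ratio of Prss3 to Try10 counts was between -0.67 and -0.26 in WT and between 1.41 and 1.64 in KSR23 mice, so Try10 had more counts than Prss3 in every WT mouse and fewer in every KSR23 mouse. Per window found in no other gene, Prss3 was above Try10 in both groups, and the order was not exchanged. For Prss2, which shares few windows, the log2 ratio to Try10 was between 2.81 and 2.93 in WT and between 3.97 and 4.40 in KSR23 mice.

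**Figure D2:**
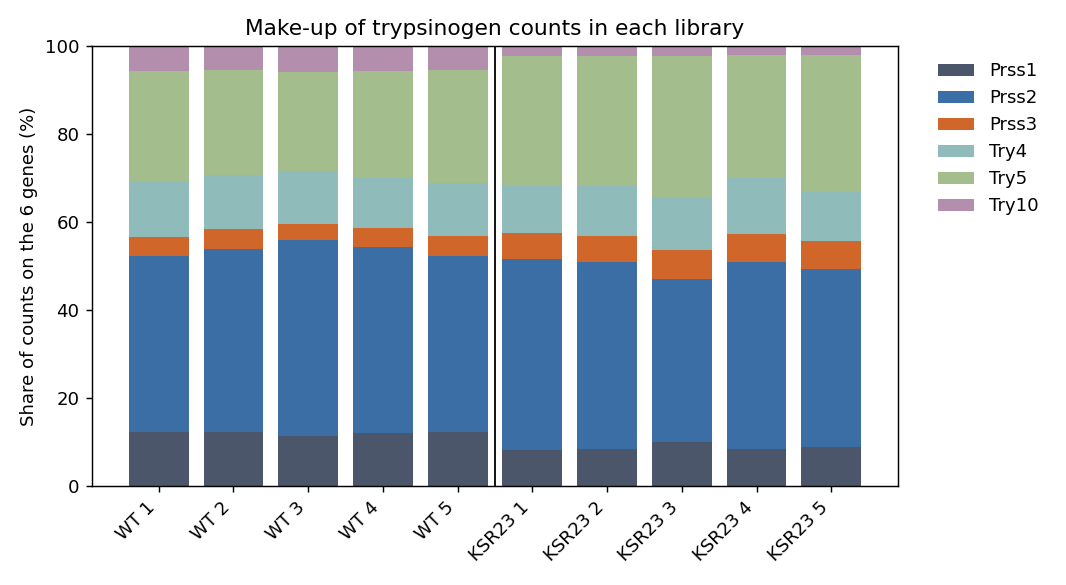
Share of each gene, in percent on the vertical axis, in the counts on the 6 trypsinogen genes, for each of the 5 WT and 5 KSR23 libraries on the horizontal axis. The Try10 segment at the top narrows from 5.60% to 2.18% by mean, and the Prss3 segment widens from 4.31% to 6.22%.

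Other trypsin-like genes of the same cluster, listed under 8 symbols of which 6 were in the files, were compared next. Of these, 3 rose, 1 fell and 2 were not called, beside 16.2% of all tested genes called higher and 14.8% called lower. Gm2663 (chromosome 6, 40995830 to 40999479, minus strand) was at 74.5, 74.9, 76.3, 98.9 and 75.1 CPM in WT mice and 593, 506, 501, 441 and 466 CPM in KSR23 mice. Its log2 FC was 2.65 (SE 0.0955, adjusted p = 7.58e-13 by edgeR), above that of any of the 6 trypsinogens. Its WT level per length was also below theirs, at 92.7 ± 12.3 CPM per kb.

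The adjacent 1810009J06Rik (40964754 to 40968435, plus strand) was at 55.4, 64.2, 60.4, 81.3 and 44.8 CPM in WT and 455, 386, 361, 259 and 366 CPM in KSR23 mice, with a log2 FC of 2.58 (SE 0.145, adjusted p = 2.69e-10 by edgeR). Transcripts of this pair are identical at 99.4% of bases. They share 74.8% of the windows of 1810009J06Rik. Reads that align to both genes were not counted, so the counts rest on a minor part of each transcript. Windows found in no other gene were 25.2% for 1810009J06Rik and 23.4% for Gm2663, and the level of each is uncertain.

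Gm10334, the near copy of Prss3 (98.9% identical), rose with it, from 1501 ± 145 to 3047 ± 486 CPM (log2 FC 1.02, SE 0.114, adjusted p = 1.92e-06 by edgeR). In contrast, 2210010C04Rik fell from 10231 ± 405 to 7503 ± 622 CPM (log2 FC -0.45, SE 0.0953, adjusted p = 0.00168). None of its windows occur in another gene, so its unique share was 100%. Its WT level was close to those of Prss1 (10581 ± 425 CPM) and Try4 (10639 ± 626 CPM). For Gm10334 the KSR23 values lay wholly above the WT range, and for 2210010C04Rik wholly below it.

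Gm5771, which is 97.8% identical to Prss1, was at 9022 ± 328 and 10658 ± 1306 CPM with a log2 FC of 0.24, and missed the threshold (adjusted p = 0.0884 by edgeR), although it passed without KSR23 mouse 1 (adjusted p = 0.0199). The pseudogene Gm5409 was at 3.75 ± 0.943 and 4.31 ± 0.937 CPM and was not called (adjusted p = 0.480). All 12 cluster genes together held 10.5 ± 0.265% of gene counts in WT and 14.2 ± 0.954% in KSR23 mice. The direction of change did not follow position, since genes that rose stood on both sides of Try10 and 2210010C04Rik.

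**Figure D3:**
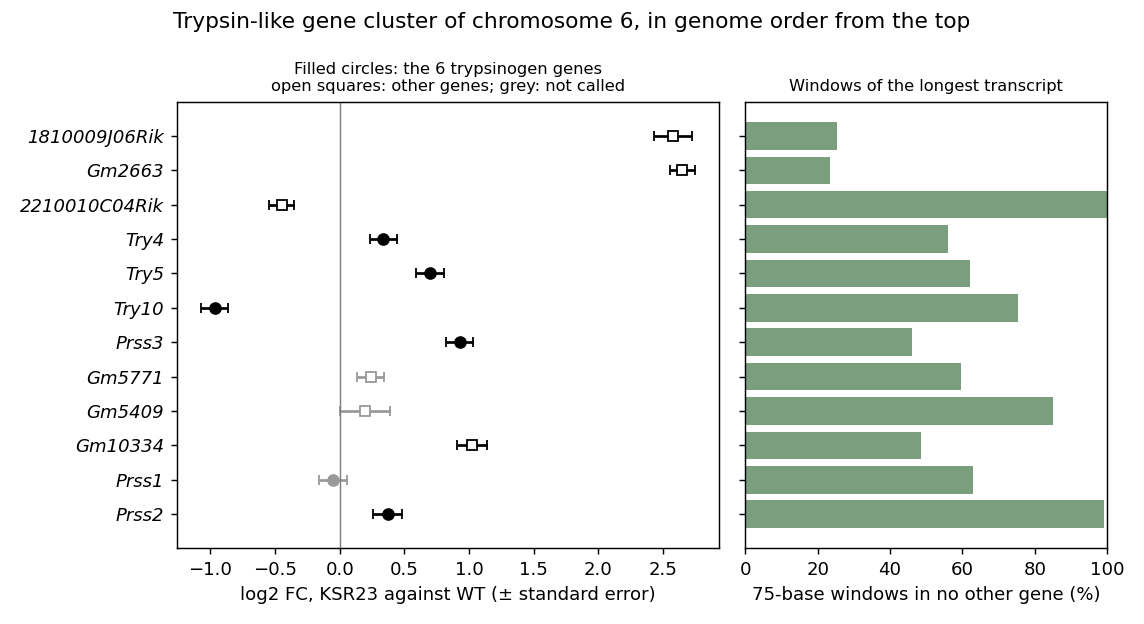
Left, log2 FC of KSR23 against WT (± SE) for the 12 trypsin-like genes of chromosome 6 in genome order, with the 6 trypsinogens as filled circles, other genes as open squares and genes that were not called in grey. Right, percent of 75-base transcript windows found in no other gene, which is 23.4% for Gm2663, the gene with the largest rise, and 99.1% for Prss2.

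The zymogens that trypsin activates moved against most of the trypsinogens. Of 12 symbols, 11 were in the files and tested, 10 fell and none rose, with a median log2 FC of -1.13. Of all tested genes, 14.8% were called lower and 16.2% higher. Several of these falls had been reported by the study from the same mice. The largest falls were those of Ctrl, a chymotrypsin-like protease (log2 FC -2.90, adjusted p = 1.81e-10 by edgeR), and Cela1, elastase 1 (-2.53, adjusted p = 1.37e-11). Ctrl was at 8072 to 9243 CPM in WT and 742 to 1619 CPM in KSR23 mice. Falls of Ctrc (-2.11), Cpa1 (-1.37), Clps (-1.19) and Cela2a (-1.13) followed, and those of Pla2g1b (-0.57), Cpb1 (-0.54) and Cela3b (-0.49) were smaller. Ctrb1, a chymotrypsinogen, had a log2 FC of -0.13 and was not called (adjusted p = 0.371).

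In counts, the 6 trypsinogens came to 0.324 ± 0.0143 per count of the 11 zymogens in WT mice and 0.741 ± 0.0225 in KSR23 mice, with no overlap. The zymogens held 26.3 ± 0.728% of gene counts in WT and 16.1 ± 0.801% in KSR23 mice. Of the 6, Try10 was the gene whose log2 FC lay among those of the zymogens, between Pla2g1b and Cela2a.

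**Figure D4:**
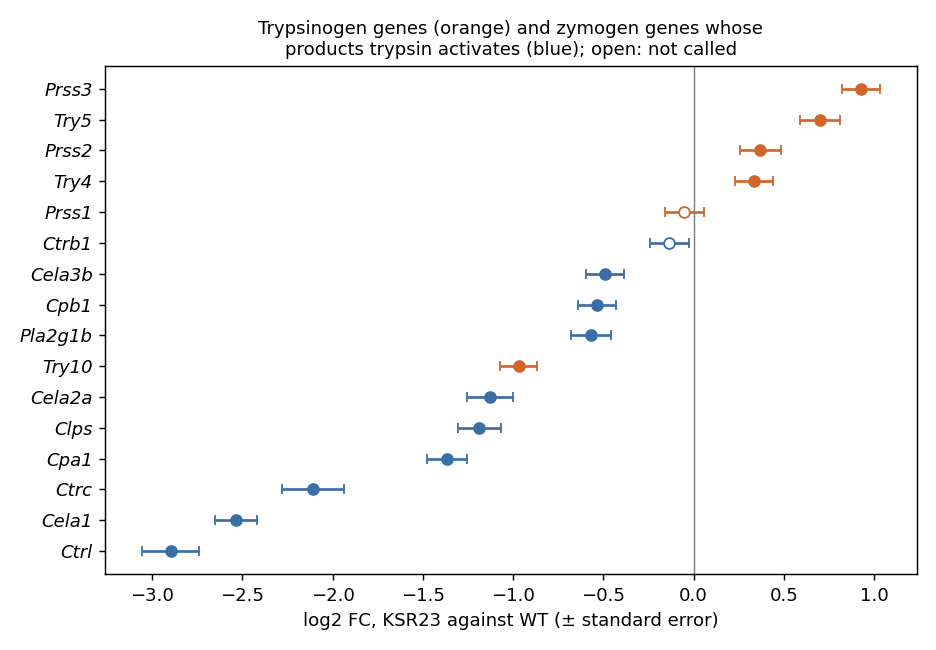
Log2 FC of KSR23 against WT (± SE) for the 6 trypsinogen genes (orange) and 10 of the 11 zymogen genes whose products trypsin activates (blue), ordered by size, with open symbols for genes that were not called. Prss3, Try5, Prss2 and Try4 lie above 0 and Try10 lies at -0.97, among the zymogens, which run from -0.13 (Ctrb1) to -2.90 (Ctrl).

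Trypsin inhibitors were compared next. Spink3, the pancreatic secretory trypsin inhibitor, was at 1654, 1067, 1232, 2064 and 1415 CPM in WT mice. It was at 1492, 1447, 1516, 1643 and 1632 CPM in KSR23 mice. The groups overlapped, and the WT mice were the more variable (1486 ± 390 and 1546 ± 87.3 CPM, SD, n = 5 each). The log2 FC was 0.06 (SE 0.134, adjusted p = 0.786 by edgeR), and its sign turned without WT mouse 2 (-0.04) or WT mouse 3 (-0.00846). For each Spink3 count there were 44.7 to 79.7 trypsinogen counts in WT and 66.4 to 86.6 in KSR23 mice, which overlapped.

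Of 11 inhibitor symbols, 10 were in the files and 4 passed the count minimum, of which 1 rose and 3 were not called. Among all tested genes, 16.2% were called higher. Ambp, the precursor of the Kunitz inhibitor bikunin, rose from 83.7 ± 5.28 to 109 ± 11.6 CPM (log2 FC 0.38, adjusted p = 0.00108 by edgeR). Spint1 (adjusted p = 0.802) and Spint2 (adjusted p = 0.604), membrane inhibitors of serine proteases, were not called. A2m, which encodes alpha-2-macroglobulin, and Serpina1a to Serpina1e, near-identical copies of the alpha-1-antitrypsin gene, were under the count minimum and were not tested.

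Among 5 genes listed as activators or degraders of trypsinogen, 3 rose and 1 fell. Of all tested genes, 16.2% were called higher and 14.8% lower. Ctsb, the lysosomal cathepsin B, which can activate trypsinogen inside the acinar cell, rose from 400 ± 15.5 to 534 ± 32.3 CPM (log2 FC 0.42, adjusted p = 8.22e-05 by edgeR). Ctsl, cathepsin L, which inactivates trypsinogen, rose more, from 607 ± 47.2 to 1112 ± 101 CPM (log2 FC 0.87, adjusted p = 2.79e-07). Ctsd, which activates cathepsin B, rose from 269 to 325 CPM by mean (log2 FC 0.27, adjusted p = 0.00308).

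Ctrc, chymotrypsin C, listed as a degrader and also 1 of the 11 zymogens, fell from 13.3 ± 1.80 to 3.07 ± 0.886 CPM (log2 FC -2.11, adjusted p = 3.52e-08 by edgeR). Its level was low in both groups beside Ctrb1 (58695 ± 3994 CPM in WT mice). Whether it yields an active enzyme in these mice was not measured. Tmprss15, the gut enzyme enteropeptidase, had 0 to 6 counts per library and was not tested. F2rl1, the receptor PAR2 that trypsin cleaves, was at 0.824 to 1.04 CPM in WT and 1.01 to 1.58 CPM in KSR23 mice, which overlapped, and it missed the threshold with a log2 FC of 0.51 (adjusted p = 0.108).

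Marker genes of the cells in the tissue also differed between the groups. Of all tested genes, 16.2% were called higher and 14.8% lower. The 7 acinar markers all fell, Ptf1a (log2 FC -0.50, adjusted p = 0.00218 by edgeR) and Rbpjl (-0.40, adjusted p = 0.000673) among them. Their summed level was 111033 to 124959 CPM in WT and 59752 to 77279 CPM in KSR23 mice. Most of that sum was Cel (84381 ± 4804 and 55980 ± 6621 CPM, SD), and the markers Cpa1 and Cela1 are also among the zymogens above. Trypsinogens are acinar products as well, but their own summed level was higher in KSR23 mice, at 99086 to 125719 CPM against 80734 to 93182 CPM in WT mice. The 7 markers were chosen with earlier results of these data known, and they do not stand for all acinar products. Ctrb1 (log2 FC -0.13, adjusted p = 0.371 by edgeR) and Spink3 (0.06, adjusted p = 0.786) were not called, while 10 of the 11 zymogens fell.

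Of 5 duct markers, 4 rose and Krt19 was not called (summed level 392 to 435 and 541 to 623 CPM). Of 8 leukocyte markers, 6 rose, Cd3e fell and Cd79a was not called (86.8 to 97.9 and 119 to 292 CPM). The highest sum was that of KSR23 mouse 3, and the other KSR23 mice reached at most 174.5 CPM. Of 6 islet markers, 5 fell and Ppy rose (7792 to 11066 and 4752 to 5951 CPM). Of 4 adipocyte markers, Fabp4, the 1 tested, fell (86.9 to 129 and 29.4 to 56.9 CPM). Of 5 intestinal markers, Vil1, the 1 tested, rose, and the list summed to 5.08 to 7.37 and 7.23 to 11.0 CPM. Cdx2 was at 0 in every mouse but KSR23 mouse 2. That mouse also had 55 counts of Fabp2 (1 to 8 in the other mice) and 63 of Alpi (0 to 6), whereas Lct was highest in KSR23 mouse 5 (18 counts). The part of cell make-up in the trypsinogen differences was not tested.

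To describe which genes had profiles most like each trypsinogen, log2 CPM were centred on each gene's mean and the root mean square difference over the 10 libraries was taken, for 7416 other genes with a mean of at least 10 CPM. The genes nearest to Prss3 were its near copy Gm10334 (0.0876) and D11Wsu47e (0.131). Those nearest to Try5 were Reg1 (0.107), a Reg gene, and Marcksl1 (0.112). For Try10, Acat1 (0.0946) was 1 of the 2 nearest genes. The remaining profiles were nearest to Gys1 (0.0758) and Rgs19 (0.0948) for Prss2, Phlda3 (0.0639) and Nop9 (0.0742) for Try4, and Ppil1 (0.0622) and Usp1 (0.0642) for Prss1. Among the 6 themselves, Prss2 and Try4 were the closest pair (0.116), and Try10 was far from its nearest, Prss1 (0.462). The profiles span both groups, so genes with a like log2 FC come out near each other. A small value therefore adds little to the log2 FC and does not show likeness within a group.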

How the data were processed

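Pancreas RNA (100 pg per library) was amplified from poly(A) with SMART-Seq v4 and tagged with Nextera XT, without molecular identifiers, and sequenced as single-end reads of 75 bases. The authors aligned reads to mm10 with TopHat2 2.1.0 and counted uniquely aligned reads with HTSeq 0.6.1p1 by strict intersection with genes (submitters' processing notes and the study's methods). The deposited values are raw counts per gene. The annotation and strand setting are not given in the sources used here, and the kit does not mark strand, so overlapping genes are uncertain. Tallies of alignments given to no gene, 42.3 to 57.2% of the total in a file, were left out of library sizes. Jejunum libraries were not analysed here.

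The 13882 of 24062 genes that reached 5 counts in each library were scaled by TMM and compared with edgeR 4.0.16 (quasi-likelihood F test, Benjamini-Hochberg over all tested genes) in R 4.3.3. The SE of a log2 FC was taken as the absolute log2 FC over the root of F. Log2 CPM used a prior count of 2. Single values were compared by a two-sided exact permutation test over 252 arrangements. The scripts were tested on simulated data. No 2 libraries of the same group agreed within sampling noise. The labels give no litter or culture, so p-values measure the spread between these mice. GENCODE M21 (GRCm38) gave gene positions and transcripts, and promoter windows come from RefSeq. Sequences were aligned with Biopython 1.88.

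The 6 trypsinogens and all lists (cluster genes, inhibitors, activators and degraders, the receptor F2rl1, zymogens, transgene subunits and cell markers) were chosen with earlier results of these data known. Genes named are the members, list members in the files, and the 2 genes with the most similar profile to each member. Of the listed genes, 1 is not reported here on its own. The 7 Reg genes served as a left-out set. Results were recomputed with RLE size factors, library totals with and without the 50 highest genes, other count filters, DESeq2 1.42.0, edgeR's likelihood ratio test, a block on replicate number, and with 1 mouse at a time left out.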

Additional observations from a re-analysis of the deposited data

Results flagged for a closer look

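Each measure was checked within each group of 5 mice, which gave 80 sets of values. In 9 of the 80, 1 mouse lay apart from the others by Dixon's criterion. For independent sets, chance meets it in about 1 in 20, or 4 here. Many sets share the same mice and counts, so the 9 cannot be weighed against the 4. KSR23 mouse 1 was low for Try4 (10840 CPM, against 13790 to 14300 in the other KSR23 mice), for Cela3b (8277 CPM against 10510 to 10770) and for Clps (14390 CPM against 16710 to 17100). WT mouse 3 was low for Gm10334 (1249 CPM against 1537 to 1620), for the share of Prss3 in the trypsinogen counts (3.681% against 4.352 to 4.532%) and for the log2 ratio of Prss3 to Try10 (-0.6651 against -0.3644 to -0.2634). WT mouse 4 was high for Gm2663 (98.91 CPM against 74.45 to 76.29), WT mouse 1 for Spint2 (429.9 CPM against 377.1 to 391.1) and WT mouse 5 for F2rl1 (1.042 CPM against 0.8235 to 0.8705).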

How the results depend on the processing

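Of 234 values for 13 genes under 18 alternatives each, 221 kept their direction and their side of the threshold, 6 lost a call, 3 gained one (all Gm5771) and 4 changed sign (Prss1 and Spink3). The number of trypsinogens called higher was 4, and 2 with the replicate number as a block, where Prss2 (adjusted p = 0.0826 by edgeR) and Try4 (0.0819) lost their calls. It ranged from 2 to 4 when 1 mouse was left out, with 2 called without WT mouse 2 or WT mouse 5. No pairing by replicate number was seen: deviations of same-numbered mice correlated between -0.111 and 0.0661, and 1 of 10 correlated best with its own number. These values cannot exclude a shared litter or handling. Log2 FC ranges over the alternatives were 0.877 to 1.016 for Prss3, 0.653 to 0.791 for Try5, 0.319 to 0.462 for Prss2, 0.296 to 0.428 for Try4 and -1.015 to -0.874 for Try10. Prss1 was 0.041 with library totals alone, and from -0.1008 to 0.01638 with 1 mouse left out. Spink3 ran from -0.0418 to 0.2007 with 1 mouse left out. Library totals alone gave 3072 genes higher and 1164 lower, against 2250 and 2049 with TMM, and moved the median log2 FC of all genes to 0.0865. The trypsinogen share of counts was higher by 3.389 points in KSR23 mice, and by 4.637 with Reg genes left out. The cause was not tested for any of these. Depth did not limit the 6 genes. Tmprss15, A2m and the Serpina1 genes were under the count minimum and were not tested by edgeR.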
